A study of Mus musculus with 12 samples.

Results

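Collagen genes were compared between hearts with and without Sdhaf4, an assembly factor of mitochondrial complex II. The collagen genes were taken as the rows of the expression table whose gene name is Col, a number, the letter a and a further number with nothing after it, which gave 44 of 43686 rows. They were grouped by the known architecture of their proteins into 11 fibrillar collagens, 6 collagens of basement membranes, 9 FACIT collagens (fibril-associated collagens with interrupted triple helices), 6 beaded filament collagens of type VI and 12 others. RNA came from the ventricular wall of C57BL/6 mice, labelled as 2 months old, and each group held 6 mice. WT mice carried floxed Sdhaf4 alleles without Cre (Sdhaf4fl/fl), and KO mice, whose labels read Sdhaf4-/-, carried the same floxed alleles with Ckmm-Cre. The floxed alleles are therefore shared by both groups, whereas the Cre transgene is carried by KO mice alone, and no group with Cre and without floxed alleles was analysed here. The muscle creatine kinase promoter of Ckmm-Cre acts in cardiac and skeletal muscle cells, so fibroblasts and vascular cells are not its intended targets. Deletion of Sdhaf4 by cell type was not measured in this whole-tissue RNA. The study describes the controls as littermates, places the mice on a C57BL/6J background and gives in its text a younger age for these hearts than the labels, while its reporting summary names several ages for the omics work.

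Collagens are secreted proteins whose chains wind into triple helices and then assemble outside the cell. In the heart, fibrils of types I and III, with some type V, form the network between muscle cells and are made mainly by fibroblasts. Type IV collagen forms the sheet of the basement membrane around cardiomyocytes and capillaries, type VI forms fine beaded filaments next to it, and FACIT collagens lie on the surface of fibrils.

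Between 23747014 and 27159228 reads were counted per WT library, and between 26542930 and 31393393 per KO library. Sdhaf4 itself was at 25.2 ± 5.80 CPM (counts relative to the scaled library total) in WT and 2.40 ± 0.170 CPM in KO hearts (SD, n = 6 each), a log2 fold change of -3.39. Cardiomyocyte markers were high in every library, while the atrial genes Myl7, Sln and Bmp10 stayed below 0.30 CPM in every library of this ventricular tissue. The RNA is from whole tissue, so more cells that make collagen and more collagen RNA per cell cannot be told apart.

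Upstream sequences are shown for 6 genes on which the results below turn: the fibrillar genes Col1a2 and Col3a1, which were abundant in both groups, Col8a1, Col8a2 and Col9a2, which rose steeply from low or modest levels, and Col6a6, which fell. Each is the 250 bases before the gene's start in the RefSeq annotation of GRCm38.p6, written 5′ to 3′ on the gene's own strand. Capitals mark CCAAT (the CCAAT box), TATAAA (the TATA box), GGGCGG (the GC box) or their reverse complements, and no such match overlaps another in these windows.
Col1a2 (chr6:4505368-4505617, + strand): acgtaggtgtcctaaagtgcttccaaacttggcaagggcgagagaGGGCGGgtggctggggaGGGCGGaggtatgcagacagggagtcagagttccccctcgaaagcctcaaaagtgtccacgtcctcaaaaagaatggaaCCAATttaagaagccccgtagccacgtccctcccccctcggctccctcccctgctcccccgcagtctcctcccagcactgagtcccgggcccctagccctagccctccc
Col3a1 (chr1:45311288-45311537, + strand): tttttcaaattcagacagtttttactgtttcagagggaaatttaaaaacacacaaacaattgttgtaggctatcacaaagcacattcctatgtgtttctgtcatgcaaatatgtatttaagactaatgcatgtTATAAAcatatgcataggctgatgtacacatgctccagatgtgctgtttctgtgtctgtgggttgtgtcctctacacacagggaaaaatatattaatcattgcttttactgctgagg
Col8a1 (chr16:57754738-57754987, - strand): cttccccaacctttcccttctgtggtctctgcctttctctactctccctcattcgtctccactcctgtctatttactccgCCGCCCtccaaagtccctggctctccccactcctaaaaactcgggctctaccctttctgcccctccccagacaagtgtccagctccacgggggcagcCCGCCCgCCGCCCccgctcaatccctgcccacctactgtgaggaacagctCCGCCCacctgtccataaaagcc
Col8a2 (chr4:126286544-126286793, + strand): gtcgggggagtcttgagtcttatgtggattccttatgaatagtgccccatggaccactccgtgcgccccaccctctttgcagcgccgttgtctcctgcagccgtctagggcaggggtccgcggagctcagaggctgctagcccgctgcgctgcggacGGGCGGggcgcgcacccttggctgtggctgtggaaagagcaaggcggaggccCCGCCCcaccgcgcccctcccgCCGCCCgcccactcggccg
Col9a2 (chr4:121039316-121039565, + strand): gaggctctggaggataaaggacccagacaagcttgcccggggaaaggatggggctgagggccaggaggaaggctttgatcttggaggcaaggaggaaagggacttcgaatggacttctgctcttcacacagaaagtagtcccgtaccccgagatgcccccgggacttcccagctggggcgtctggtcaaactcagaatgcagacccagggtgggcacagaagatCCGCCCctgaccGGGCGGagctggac
Col6a6 (chr9:105828086-105828335, - strand): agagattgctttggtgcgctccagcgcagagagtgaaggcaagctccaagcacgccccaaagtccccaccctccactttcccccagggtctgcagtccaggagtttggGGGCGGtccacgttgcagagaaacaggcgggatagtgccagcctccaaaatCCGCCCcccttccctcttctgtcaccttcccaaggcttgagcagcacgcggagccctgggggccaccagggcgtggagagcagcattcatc

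The Col1a2 window holds a CCAAT match that starts 109 bases before the gene's start and a pair of GC boxes, whereas the only match in Col3a1, the partner of type I collagen in the same fibrils, is TATAAA. The windows of Col8a1 and Col8a2, which encode the chains of type VIII collagen, hold 4 and 3 GC boxes. The Col6a6 window holds 2, as does that of Col9a2, so the gene that fell and the gene that rose most share this feature. Windows were found for 35 of the 44 collagen genes, and both strands were searched. GGGCGG occurred in 21 of 35 windows (60.0%), against 32.7% of the 32851 windows of all genes. CCAAT occurred in 34.3% (all genes 33.8%), TATAAA in 14.3% (12.4%), the AP-1 motif TGANTCA in 2.86% (6.75%), the hypoxia response core ACGTG in 14.3% (16.6%) and the TEAD motif CATTCC in 8.57% (12.6%). These shares describe letters in a window of fixed length and were not tested.

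Most collagen genes had more RNA in KO hearts. With edgeR's quasi-likelihood test and Benjamini-Hochberg adjustment over all 17155 rows with enough counts, 27 of the 36 collagen genes tested were higher in KO and 2 were lower at an adjusted p of 0.05, and 7 passed in neither direction. Changed rows are common in these hearts, since 25.6% of all rows tested were higher, 25.5% were lower and 51.1% passed in either direction. The corresponding shares of collagen genes were 75.0% and 5.56%. At an adjusted p of 0.005 and a log2 fold change beyond 1, 19 collagen genes were higher and 1 was lower, where 5.36% and 4.87% of all rows passed. In 18 collagen genes every KO library lay above every WT library, which held for 14.9% of all rows, and in 1 gene, Col6a6, every KO library lay below, as in 15.2% of all rows. The median log2 fold change was 1.21 over the collagen genes and 0.00217 over all rows.

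**Figure D1:**
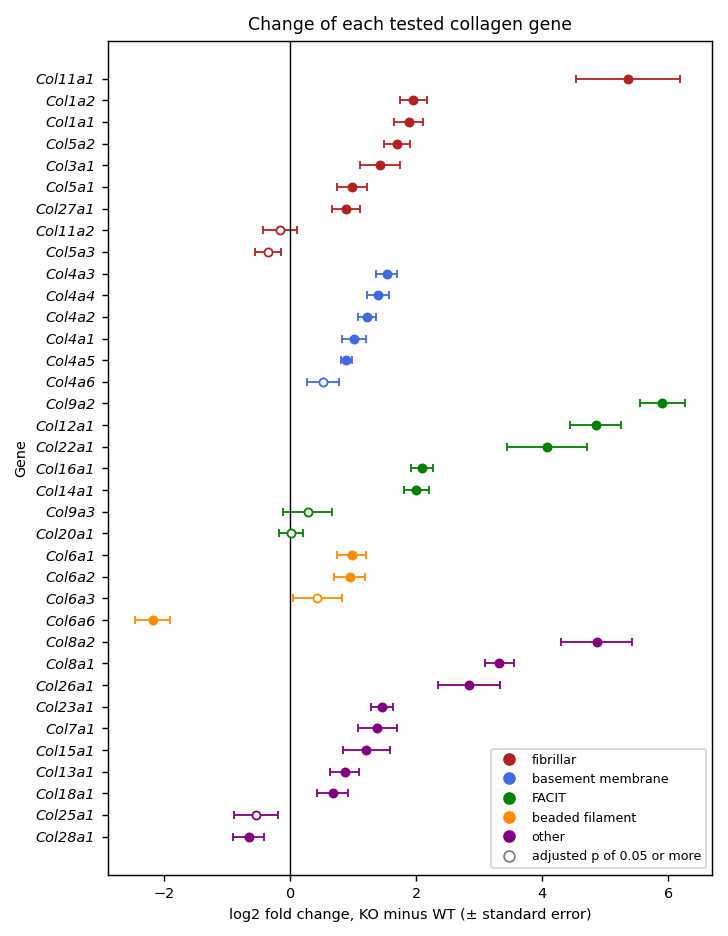
Log2 fold change of KO against WT hearts (x axis) with its standard error for each of the 36 collagen genes tested (y axis), coloured by class, with open circles for genes at an adjusted p of 0.05 or more. 27 filled points lie right of 0 and 2, Col6a6 and Col28a1, lie left of it.

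Each class held genes that were higher in KO hearts. The median log2 fold change was 2.09 in the FACIT class, 1.43 in the fibrillar class, 1.30 among the others, 1.11 in the basement membrane class and 0.69 in the beaded filament class. Of the genes tested, 7 of 9 fibrillar, 5 of 6 basement membrane, 5 of 7 FACIT, 2 of 4 beaded filament and 8 of 10 other genes were higher. None of the beaded filament genes that rose passed the stricter threshold or had every KO library above every WT library. Of the genes that fell, Col6a6 is in the beaded filament class and Col28a1 among the others. Differences between classes were not tested.

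Among the fibrillar collagens, the chains of the major cardiac fibrils rose together. Col1a2 (chromosome 6, bases 1292781 to 1333259 of the C57BL/6NJ assembly, as are all gene positions here), which encodes the α2 chain of type I collagen, was at 135, 163 and 194 CPM (lowest, median and highest library) in WT and at 390, 617 and 870 CPM in KO hearts. The groups did not overlap, and the log2 fold change was 1.96 ± 0.22 (SE, adjusted p = 1.37e-05). Col1a1, the α1 chain of type I, rose by a similar log2 fold change of 1.88. Col3a1 (chromosome 1, 46187689 to 46232092), the single chain of type III collagen, was at 202, 281 and 397 CPM in WT and at 318, 772 and 1274 CPM in KO. One KO library, replicate 6, lay within the WT range for Col3a1, and the other 5 lay above it (log2 fold change 1.43 ± 0.32, adjusted p = 0.00328).

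Type V collagen, which nucleates and limits the width of type I fibrils, changed by chain. Col5a2 rose by 1.70 and Col5a1 by 0.98 on the log2 scale, while Col5a3 did not pass (-0.35, adjusted p = 0.183). The largest fibrillar change was in Col11a1 (chromosome 3, 120084719 to 120303809), a type XI chain best known from cartilage. It was nearly absent from WT hearts, with 0 to 6 counts and a median of 0.0377 CPM (highest 0.243), and was at 0.497, 2.72 and 8.09 CPM in KO. Its log2 fold change of 5.36 ± 0.82 (adjusted p = 1.13e-04) rests on those few WT counts and was 6.06 without WT replicate 5. Of the remaining fibrillar genes Col27a1 rose by 0.89, and Col11a2, a further type XI chain, gave -0.17 (adjusted p = 0.640).

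**Figure D2:**
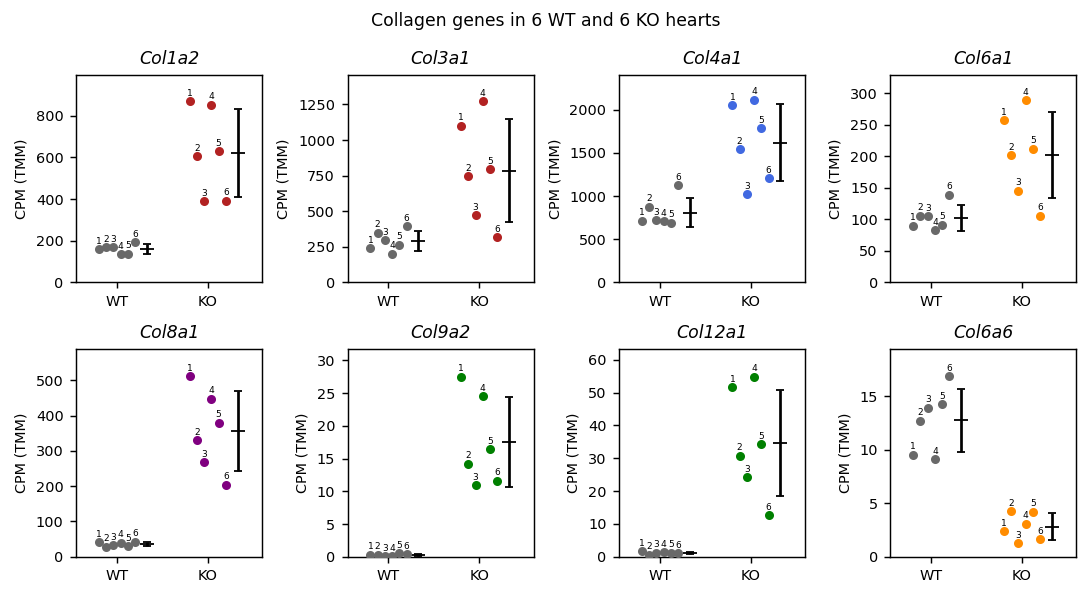
CPM, scaled by edgeR's TMM method, of 8 collagen genes in each of 6 WT and 6 KO hearts, with the replicate number above each point and the mean ± SD beside each group. Col1a2, Col8a1, Col9a2 and Col12a1 separate the groups upward and Col6a6 downward, whereas KO replicate 6 falls among the WT points for Col3a1 and Col6a1.

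Of the 6 basement membrane genes, 5 rose, by 0.89 to 1.53 on the log2 scale, and Col4a6 did not pass. Col4a1 (chromosome 8, 8745072 to 8867068), a chain of the common type IV network, had the highest FPKM of all collagens in both groups. It was at 691, 721 and 1123 CPM in WT and 1020, 1666 and 2116 CPM in KO hearts (log2 fold change 1.01 ± 0.19, adjusted p = 7.24e-04). Only KO replicate 3 fell below the highest WT library, replicate 6. Its partner chain Col4a2 (chromosome 8, 8867047 to 9005470) was at 443, 460 and 677 CPM in WT and 863, 1181 and 1429 CPM in KO, without overlap (1.21 ± 0.14, adjusted p = 9.12e-06).

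The chains of the type IV network best known from the kidney glomerulus were far less abundant per length (3.49 and 3.52 FPKM for Col4a3 and Col4a4 in WT hearts) and rose more steeply, without a test of that difference. Col4a3 (chromosome 1, 86718767 to 86869638) went from 8.11, 10.2 and 12.9 CPM in WT to 20.2, 30.8 and 37.0 CPM in KO (1.53 ± 0.17, adjusted p = 3.89e-06). Col4a4 (chromosome 1, 86566252 to 86718695) went from 16.9, 18.7 and 24.5 CPM to 32.7, 56.4 and 63.6 CPM (1.40 ± 0.17, adjusted p = 2.01e-05). Neither gene's groups overlapped. Col4a5 on chromosome X, which joins both in that network, rose by 0.89. Col4a6, at a median of 1.46 CPM in WT and 1.97 CPM in KO, did not pass (0.52, adjusted p = 0.0971) but did so without KO replicate 6 (0.62, adjusted p = 0.0455).

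These 6 genes lie as 3 head-to-head pairs, an arrangement known to place a shared promoter between the partners. Col4a1 and Col4a2 share 22 bases at their starts, Col4a3 and Col4a4 lie 71 bases apart, and Col4a5 and Col4a6 lie 1308 bases apart. The first pair rose by 1.01 and 1.21, the second by 1.53 and 1.40, and the third gave 0.89 and 0.52. Whether the counting used strand is not stated, so reads from the shared bases of Col4a1 and Col4a2 cannot be assigned with certainty. In all, 7 of the 36 genes tested overlap another tested row: Col5a1, Col4a1, Col4a2, Col4a3, Col20a1, Col15a1 and Col18a1.

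Steep rises were found in several FACIT collagens that were scarce in WT hearts. Col9a2 (chromosome 4, 126947945 to 126963880), a chain of the type IX collagen that coats cartilage fibrils, was at 0.118, 0.293 and 0.526 CPM in WT and at 11.0, 15.3 and 27.5 CPM in KO hearts. That is the largest log2 fold change of the family, 5.91 ± 0.36 (adjusted p = 1.91e-08), and every KO library lay above every WT library. Of the other type IX genes, Col9a3 was at a median of 0.331 CPM in WT and 0.480 CPM in KO (0.28, adjusted p = 0.577), and Col9a1 had 0 counts in all WT libraries and 7 over the KO libraries, at most 4 in one, too few to test. Fitted without a filter on low counts, Col9a1 gave 3.28 (edgeR, adjusted p = 0.0557), a value that depends on the prior count because no WT library had a count.

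Col12a1 (chromosome 9, 82312170 to 82438687), which binds type I fibrils in tendon and other loaded tissue, went from 0.687, 1.22 and 1.78 CPM in WT to 12.7, 32.6 and 54.9 CPM in KO. The groups lay far apart, with a log2 fold change of 4.85 ± 0.40 (adjusted p = 1.50e-06). Col16a1 (chromosome 4, 136982515 to 137038662), already measurable in WT hearts at 8.54, 10.6 and 11.9 CPM, reached 29.2, 42.4 and 60.1 CPM (2.09 ± 0.17, adjusted p = 4.14e-07). Col22a1, known from tissue junctions of muscle and tendon, rose by 4.08 from a WT median of 0.418 CPM, and Col14a1 rose by 2.00. The smallest change in the class was that of Col20a1, 0.01 (adjusted p = 0.969).

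Both chains of type VIII collagen, a short-chain collagen that forms lattices in vessel walls and the cornea, rose steeply from different levels per length (7.003 FPKM for Col8a1 and 0.0928 FPKM for Col8a2 in WT hearts). Col8a1 (chromosome 16, 58355268 to 58497694) was at 28.6, 36.2 and 43.2 CPM in WT and at 204, 355 and 511 CPM in KO (3.32 ± 0.23, adjusted p = 3.25e-07). No WT library came near the KO range. Col8a2 (chromosome 4, 132850969 to 132880177) went from 0.0723, 0.164 and 0.459 CPM, that is 2 to 12 counts, to 2.09, 6.62 and 11.68 CPM (4.86 ± 0.56, adjusted p = 9.04e-06).

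Col15a1 (chromosome 4, 47252506 to 47367006), a proteoglycan of the basement membrane zone around muscle cells and capillaries, was the most abundant of the remaining collagens per length in WT hearts. It was at 35.9, 50.3 and 73.1 CPM in WT and 40.2, 113 and 246 CPM in KO (1.21 ± 0.37, adjusted p = 0.0188), and KO replicate 6 lay within the WT range. Its relative Col18a1, the source of endostatin, gave 0.67 (adjusted p = 0.0359) and lost its call when any one of WT replicates 1 to 5 or KO replicates 1, 2, 4 or 5 was left out, with values from 0.52 to 0.70. Col26a1 rose by 2.84, Col7a1, the anchoring fibril collagen, by 1.38 and the membrane-bound Col23a1 and Col13a1 by 1.45 and 0.87. Col25a1, at a median under 0.5 CPM in both groups, did not pass (-0.55, adjusted p = 0.206).

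Type VI collagen was divided. Col6a1 (chromosome 10, 79676420 to 79695020) was at 83.2, 98.4 and 139 CPM in WT and at 106, 207 and 289 CPM in KO (0.98 ± 0.23, adjusted p = 0.00410). Col6a2 (chromosome 10, 79555945 to 79585431) was at 67.8, 76.9 and 107 CPM and at 71.4, 153 and 231 CPM (0.95 ± 0.25, adjusted p = 0.00758). For both genes KO replicate 6 lay within the WT range and the other 5 KO libraries lay above it. Col6a3, the long chain that joins both in the common form of type VI, gave 0.43 (adjusted p = 0.383), with KO libraries from 15.6 to 90.4 CPM and WT libraries from 20.3 to 41.8 CPM.

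Col6a6 (chromosome 9, 110396896 to 110548057), an alternative to that long chain, went the other way. It was at 9.10, 13.3 and 16.9 CPM in WT and at 1.29, 2.74 and 4.24 CPM in KO, a log2 fold change of -2.18 ± 0.27 (adjusted p = 1.48e-05). All KO libraries lay below all WT libraries. The remaining gene that was lower, Col28a1, has a domain structure related to type VI and is known from peripheral nerve. It changed by -0.66 (adjusted p = 0.0335) with overlap between the groups, from 5.86 to 11.996 CPM in WT and from 3.15 to 7.97 CPM in KO, and the call was lost without WT replicate 2, 4, 5 or 6 or KO replicate 2 or 4 (-0.64 to -0.60). Of 5 tested Schwann cell markers 4 were lower, against 25.5% of all rows, and their summed level was 15.2 to 29.9 CPM in WT and 10.03 to 17.5 CPM in KO libraries. The sum was highest in WT replicate 1, where Col28a1 was at 6.72 CPM. In WT replicate 2 the sum was 28.4 CPM, and Col28a1 was at its highest, 11.996 CPM. Among WT libraries the sum was lowest in replicate 6, where Col28a1 was at 11.8 CPM. Of all libraries KO replicate 3 had the lowest sum, 10.03 CPM, and the lowest Col28a1, 3.15 CPM. The part of Schwann cells in the Col28a1 result was not tested.

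Genes of the family without enough counts to test were Col2a1, Col10a1, Col17a1, Col19a1, Col24a1, Col6a4, Col6a5 and Col9a1. Col24a1 had 11 counts over the 6 WT libraries and 53 over the 6 KO libraries, and Col17a1 had 8 and 30. Col2a1, the main collagen of cartilage, had 6 and 12 counts, so it was barely detected while the cartilage-associated Col9a2 and Col11a1 rose. Col6a5 had 9 and 2 counts, Col19a1 had 1 and 8, and Col9a1, Col6a4 and Col10a1 had 0 in WT and 7, 2 and 2 in KO.

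**Figure D3:**
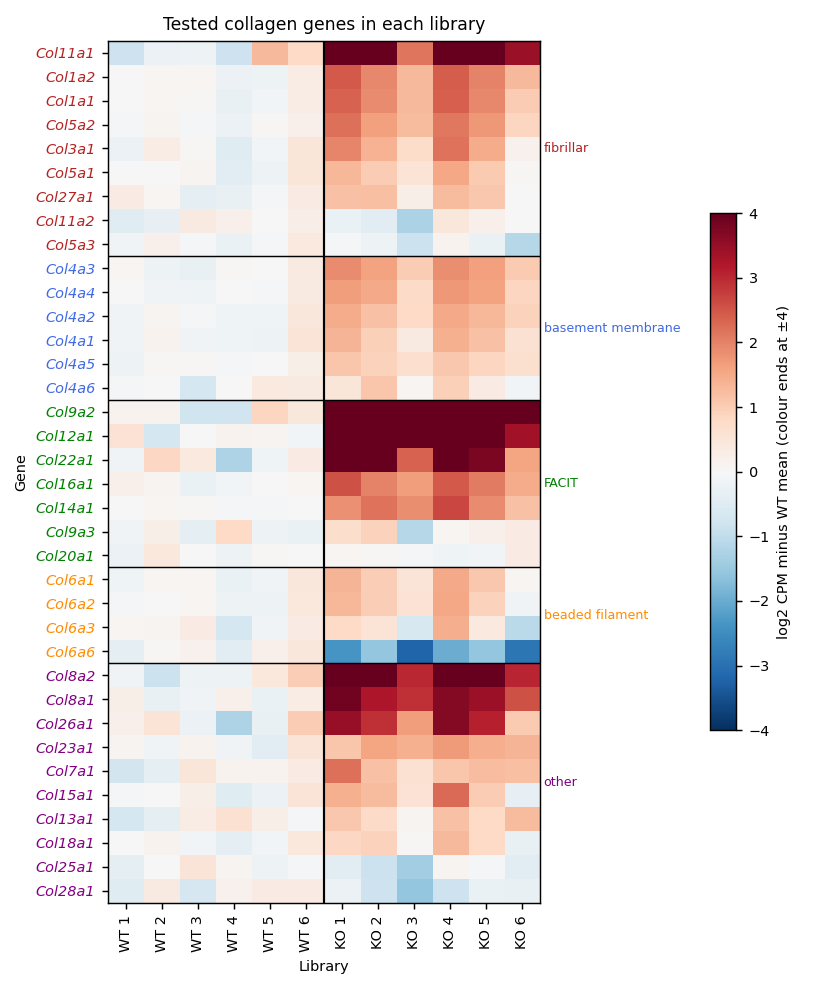
Log2 CPM minus the WT mean (colour) of the 36 collagen genes tested (rows, grouped by class) in 6 WT and 6 KO libraries (columns). Red dominates the KO columns, palest in KO replicates 3 and 6, and Col6a6 is blue in all 6 KO libraries.

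The KO hearts were not alike. The median over the 36 genes of the difference from the WT mean was 1.55 on the log2 scale in KO replicate 4 and 1.39 in KO replicate 1, but 0.65 in KO replicate 3 and 0.76 in KO replicate 6. Among the 27 genes that were higher, KO replicate 4 had the highest KO value in 17 and KO replicate 1 in 9, whereas KO replicate 6 had the lowest in 16 and KO replicate 3 in 10. KO replicates 6 and 3 reached no further than the highest WT library in 7 and 4 of the 27 genes, and the other 4 KO libraries exceeded it in all 27. In the WT group, replicate 6 had the highest WT value in 20 of the 36 genes and a median difference of 0.35.

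KO replicate 6 differed from the other KO hearts by class. Its median difference was 0.16 for the fibrillar and -0.62 for the beaded filament genes, against 1.49 for the FACIT class and 1.13 for the others. In the other KO hearts the fibrillar median lay between 0.73 and 2.12. The beaded filament median, which rests on 4 genes, was also below 0 in KO replicate 3 (-0.06) and lay between 0.65 and 1.48 in the rest. Without KO replicate 6, the groups were separate upward in 23 genes in place of 18, and 24 genes in place of 19 passed the stricter threshold. Leaving out a library makes separation easier for any row. The shares over all rows without KO replicate 6 are not given here, so these gains cannot be called particular to collagen genes.

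Cell type markers differed between these hearts as well. The summed CPM of 6 activated fibroblast markers was 144 to 205 in WT libraries. For KO replicates 1 to 6, in that order, it was 980, 644, 750, 905, 709 and 445 CPM. Among these markers Postn (3.54), Ltbp2 (5.67), Cthrc1 (3.50) and Meox1 (1.87) rose, and Fap did not pass. The smooth muscle actin gene Acta2, which is not particular to myofibroblasts, was lower (-0.44). The summed level of 8 general fibroblast markers overlapped between the groups, at 2098 to 2663 CPM in WT and 2474 to 2747 CPM in KO. Most of that sum was Gsn, which was lower, at a mean of 1719 CPM in WT and 1408 CPM in KO, so the sum says little about the others. Of the 8 markers 6 were higher, among them Pdgfra (0.87) and Tcf21 (0.61), against 25.6% of all rows, and Dpt was lower like Gsn. Cardiomyocyte markers summed to 42469 to 46088 CPM in WT. In KO replicates 1 to 6, in that order, they summed to 33458, 37410, 45545, 33733, 34832 and 37925 CPM. The part of these levels in the collagen result was not tested.

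Markers of other cells that could contribute collagen were as follows. Of 7 endothelial markers 4 were higher and 1 was lower (summed 1399 to 1553 CPM in WT and 1485 to 1796 CPM in KO), of 7 pericyte and smooth muscle markers 3 and 1 (1719 to 1883 and 1625 to 2137 CPM), and of 7 macrophage markers 1 and 2 (220 to 297 and 218 to 298 CPM). Over all rows 25.6% were higher and 25.5% were lower, and each of these sums overlapped between the groups. Wt1 was the only epicardial marker tested and gave 0.07, and Upk3b, Msln, Krt19 and Lrrn4 had too few counts to test. Of 6 tested cartilage, tendon and valve markers 5 were higher and 1 was lower (summed 32.7 to 41.8 CPM in WT and 57.6 to 71.6 CPM in KO). The lower one was Sox6 (-0.39), at a mean of 17.7 CPM in WT and 13.5 CPM in KO. The tendon genes Tnmd (5.38) and Scx (1.78) and the chondrogenic factor Sox9 (0.94) rose beside Col9a2, Col11a1 and Col12a1. Tnmd was nearly absent from WT hearts, at a mean of 0.0757 CPM against 3.20 CPM in KO. Mkx, a further tendon gene, had too few counts to test, with means of 0.0709 CPM in WT and 0.0460 CPM in KO. Acan, Matn1, Matn3, Hapln1 and Chad, which define cartilage, also had too few counts to test. Acan, the cartilage proteoglycan aggrecan, had a mean of 0.117 CPM in WT and 0.729 CPM in KO and Hapln1 of 0.0132 and 0.0693 CPM, while the means of Matn1, Matn3 and Chad were at most 0.220 CPM in either group. Of the 3 atrial markers tested 2 were higher, Nppa (5.65) and Myl4 (0.72), while Myl7, Sln and Bmp10 had too few counts to test. The study measured Nppa, as Anp, in the left ventricle among genes of hypertrophy and fibrosis, so its rise is not particular to atrial cells. The part of any of these cell types in the collagen result was not tested.

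Summed over the family, collagen RNA took 0.211% to 0.347% of the counts of a WT library (median 0.235%) and 0.389% to 0.886% of a KO library (median 0.636%). Per length, the summed FPKM (fragments relative to gene length and library total) was 887 ± 180 in WT and 2280 ± 784 in KO hearts (SD, n = 6 each), a ratio of 2.57. The lowest KO library, at 1361, lay above the highest WT library, at 1208.

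**Figure D4:**
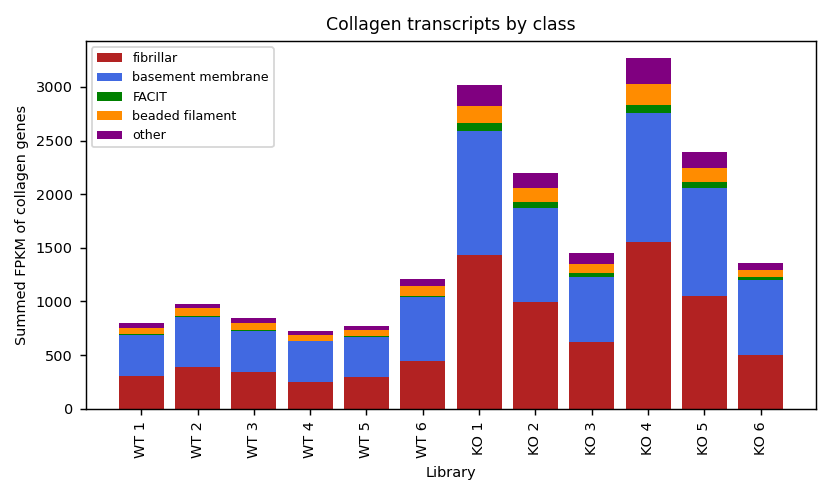
Summed FPKM of the collagen genes (y axis) in each library (x axis), stacked by class. WT libraries reach 724 to 1208 and KO libraries 1361 to 3268, with KO replicates 3 and 6 the lowest of the KO group.

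The same few genes led both groups per length. In WT hearts the order by mean FPKM was Col4a1 (222 ± 51.3), Col4a2 (186 ± 37.7), Col3a1 (162 ± 42.9), Col1a2 (70.2 ± 10.8), Col1a1 (52.4 ± 8.01) and Col6a1 (40.8 ± 8.79). The first 3 lie within a standard deviation of their neighbours, and so do Col15a1 (23.9 ± 6.34) and Col5a2 (23.5 ± 2.91) behind them. In KO hearts Col4a1 (447 ± 133), Col3a1 (438 ± 211) and Col4a2 (432 ± 97.3) could not be ordered beyond their spread, followed by Col1a2 (274 ± 98.5) and Col1a1 (195 ± 73.2). Col8a1 moved from 14th place to 8th, with 70.3 ± 23.7 FPKM in KO, Col9a2 from 31st to 14th and Col12a1 from 30th to 21st, while Col6a6 moved from 21st to 34th. The deposited FPKM uses gene lengths that are a median of 0.536 of those listed in the table for these genes, so places depend in part on that choice: with the listed lengths Col8a1 moved from 13th to 5th and Col9a2 from 31st to 16th.

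The makeup of collagen RNA by class shifted with its amount. Of the summed FPKM, fibrillar genes took 38.0% ± 1.87 in WT and 44.0% ± 3.96 in KO, and basement membrane genes 48.4% ± 2.04 and 41.8% ± 5.06. FACIT genes took 1.04% ± 0.16 and 2.42% ± 0.15, beaded filament genes 7.64% ± 0.38 and 5.44% ± 0.56, and the others 4.97% ± 0.23 and 6.39% ± 0.68. For the FACIT, beaded filament and other classes all KO libraries lay on one side of all WT libraries. KO replicate 6 kept a fibrillar share of 37.0% and a basement membrane share of 51.1%, within the WT range of both. These shares were described without a test.

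Within each library, the ratio of the counts of 2 chains does not depend on how libraries are scaled. Of 5 ratios tested by a two-sided exact permutation test over the 12 libraries, adjusted over the 5, 3 separated the groups completely, at p = 0.00216, the smallest that 6 against 6 allows (adjusted p = 0.00361, exact permutation test). Col5a1 to Col5a2 fell from a median of 0.891 (0.758 to 1.08) in WT to 0.552 (0.496 to 0.605) in KO, a log2 difference of -0.71 ± 0.09 (SE). Col1a1 to Col3a1 rose from 0.323 (0.278 to 0.379) to 0.450 (0.380 to 0.582), a log2 difference of 0.49 ± 0.11, so type I RNA gained on type III RNA. Col4a1 to Col4a2 fell from 1.59 (1.55 to 1.66) to 1.41 (1.18 to 1.48), by a smaller log2 difference of -0.22 ± 0.05.

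**Figure D5:**
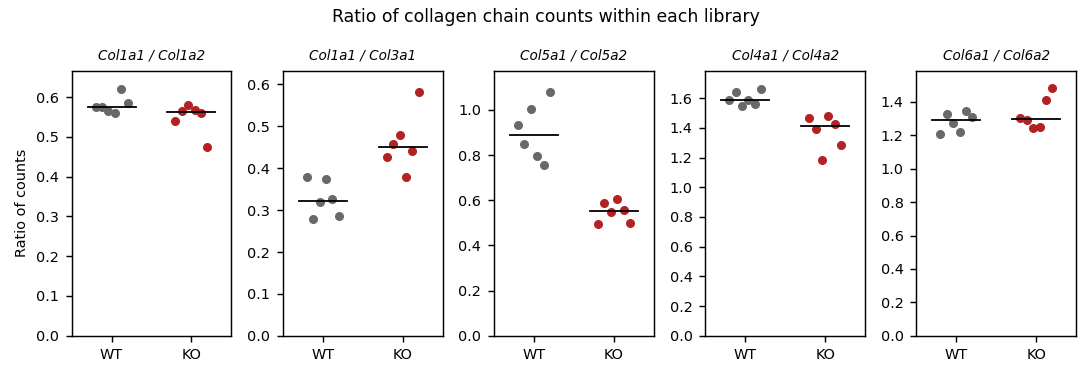
Ratio of the counts of a pair of collagen chains within each library (y axis, from 0) for 6 WT and 6 KO hearts, with a line at each group's median. The groups separate for Col1a1 to Col3a1, Col5a1 to Col5a2 and Col4a1 to Col4a2 and overlap for Col1a1 to Col1a2 and Col6a1 to Col6a2.

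The other 2 ratios tested did not pass. Col1a1 to Col1a2, the chains of type I collagen, had a median of 0.575 in WT and 0.562 in KO hearts (log2 difference -0.09 ± 0.05, exact permutation p = 0.0714, adjusted 0.0893). Without KO replicate 3 this difference was -0.10 and passed (exact permutation, adjusted p = 0.0325). Col6a1 to Col6a2 had medians of 1.29 and 1.30 (0.05 ± 0.05, exact permutation p = 0.312, adjusted 0.312). Ratios with low counts were not tested: Col9a2 to Col9a3 lay between 0.189 and 1.59 in WT and between 17.7 and 73.7 in KO libraries, and Col8a1 to Col8a2 between 90.4 and 317 and between 38.3 and 127.

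Of 21 tested genes listed for the folding, modification and secretion of collagen 13 were higher and 5 were lower, with a median log2 fold change of 0.33. Over all rows 25.6% were higher and 25.5% lower, so the share of lower genes was near that of all rows. The lysyl hydroxylase Plod2 rose by 1.08, the prolyl 3-hydroxylase P3h2 by 1.57 and the prolyl 4-hydroxylase subunit P4ha1 by 0.85, each without overlap of the groups. P3h4 (-1.11) and Fkbp10 (-0.65), partners of lysyl hydroxylation, were lower. Tango2 (-1.08), also lower and counted in this list, is not an established factor of collagen secretion. Serpinh1, the collagen chaperone HSP47, gave -0.01 (adjusted p = 0.952), and Colgalt2 and Creb3l1 did not pass either; these 3 were named after their values were seen.

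Most tested genes listed for collagen processing, crosslinking and fibril binding were higher as well. The shares over all rows were 25.6% higher and 25.5% lower. Of 14 tested genes for procollagen processing and crosslinking 12 were higher and none was lower (median 1.03), with the lysyl oxidases Lox (2.17) and Loxl3 (2.05) and the transglutaminase Tgm2 (0.80) having the smallest p. Lox was at 20.1 to 24.7 CPM in WT and 82.1 to 147 CPM in KO. Of 14 tested proteoglycans and glycoproteins that bind collagen fibrils 13 were higher and none was lower (median 1.36), and the smallest p were those of Bgn (2.03), Comp (4.02) and Prelp (1.22), which encode biglycan, cartilage oligomeric matrix protein and prolargin. Furin and Adamts14 in the former list and Thbs2 in the latter, named after their values were seen, did not pass.

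Receptors and proteases had smaller median changes. For comparison, 25.6% of all rows were higher and 25.5% were lower. Of 10 tested collagen receptor genes 7 were higher and none was lower (median 0.26), and the smallest p were those of the endocytic receptor Mrc2 (1.39), the adhesion receptor Adgrg1 (0.91) and the integrin subunit Itga11 (1.19). Of 8 tested genes of collagen breakdown 3 were higher, Mmp14 (0.96), Ctsk (1.22) and Mmp2 (1.42), and 2 were lower, the membrane-bound Mmp15 (-0.41) and the collagenase Mmp13 (-2.03), which was at 0.364 to 1.97 CPM in WT and 0.112 to 0.546 CPM in KO. These counts of 3 and 2 of 8 are near the shares over all rows. Mmp2, a gelatinase, was at 73.1 to 105 CPM in WT and 117 to 312 CPM in KO hearts, lowest in KO replicate 3.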

How the data were processed

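Poly-A RNA of 12 hearts was sequenced from TruSeq libraries. The authors mapped the reads (HISAT2 2.0.5 and mm10 per the labels, whereas the gene identifiers are of the C57BL/6NJ assembly) and deposited raw counts per gene made with HTSeq 0.9.1 and FPKM per library. Group means of counts that the authors scaled for library size (a signal) and their DESeq log2 fold changes and p-values were not used. The counts were filtered with filterByExpr (17155 rows kept), scaled by TMM and tested with the robust quasi-likelihood test of edgeR 4.0.16 (R 4.3.3), with Benjamini-Hochberg adjustment. CPM are TMM-scaled. Log2 fold changes are KO minus WT, and ± is the SE there. Named with values per group were, in each class, the 2 genes with the highest mean FPKM and the 2 called genes with the largest change among those averaging 1 CPM or more, and in each pathway list the 3 genes with the smallest p in each direction. Members, classes and lists were chosen with earlier results of these data known. Chi-square per degree of freedom between replicates of one group was 7.41 or more, so none was merged. At these depths values under 1 CPM rest on about 30 counts or fewer. The analysis was tested on simulated data. Alternatives were other normalizations, filters, tests (DESeq2 1.42.0, limma-voom with limma 3.58.1), a replicate block and each library left out.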

Additional observations from a re-analysis of the deposited data

Results flagged for a closer look

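In 2 of 86 groups of 6 libraries 1 library stood far from the others, where chance gives about 4.3. Col4a4 in WT replicate 6 was at 24.5 CPM, above 16.9 to 19.4 CPM in the other WT libraries and below all KO libraries. Col7a1 in KO replicate 1 was at 2.73 CPM, above 0.861 to 1.37 CPM in the other KO libraries.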

How the results depend on the processing

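The count of 27 collagen genes higher in KO hearts stayed at 25 to 27 under other normalizations, tests, filters and without unannotated loci, and at 26 to 28 with 1 library left out, and 29 of the 36 genes kept their direction and side of the threshold under every setting that gave them a value. The count of lower genes was 1 without a filter and 1 to 2 with 1 library left out, as Col28a1 lost its call. Col20a1, not called, changed sign with WT replicate 1 (-0.046), WT replicate 3 (-0.0024), WT replicate 4 (-0.038) or KO replicate 6 (-0.065) left out, a range of -0.065 to 0.11. The FACIT median rose to 3.08 with at least 1 CPM required in 6 libraries, since fewer genes were tested. Same-numbered WT and KO libraries did not deviate together (correlations from -0.16 to 0.024, and 1 of 6 matched its own number best). The main test used no pairing, and these correlations cannot decide whether same-numbered mice were littermates. A replicate block left 23 genes higher (Col5a1 0.93, Col6a2 0.88, Col15a1 1.05 and Col18a1 0.61 lost their calls) and 15 past the stricter threshold. With the replicate block, by sign flips over pairs, the ratios of type I to III (0.49), type V (-0.71) and type IV (-0.22) had an adjusted exact p of 0.0521 each. The type I chain ratio ranged from -0.10 to -0.045 with 1 library left out, and the type VIII ratio was -0.53 with an added count of 5 in place of 0.5.

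Class shares moved with the scale, while their direction between WT and KO did not change. With CPM in place of FPKM, fibrillar shares were 29.8% and 34.0%, basement membrane 55.2% and 48.6%, beaded filament 9.04% and 6.36%, and other 8.44% in KO. With counts per listed exon length, chosen after seeing the data, fibrillar shares were 31.0% and 35.2%, basement membrane 51.0% in WT, FACIT 2.62% in KO, beaded filament 11.1% and 8.07%, and other 5.72% and 9.93%. With Col15a1 and Col18a1 counted as basement membrane, that class took 51.6% in WT and the others 1.75% and 3.76%. At these depths genes at a few counts per library, such as Col11a1 and Col8a2 in WT hearts, have folds of low precision.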
